A study of Homo sapiens with 2 samples.

Results

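The regions described here were the MYBL2 peaks at divergent coding promoter pairs. A peak was a member when its summit lay between, or within 500 bp of either of, the 5′ ends of 2 protein-coding genes that start on opposite strands, point away from each other and are at most 1000 bp apart. The 5′ end of a gene was the outermost transcription start site in the GENCODE annotation of the hg19 genome (GRCh37). By this rule 799 of the 66954 peaks in the list were members (1.19%, exact binomial interval 1.11 to 1.28%). They lay at 722 of 821 loci (87.9%), and 647 loci held 1 member, 73 held 2 and 2 held 3. The 821 loci comprised 883 gene pairs, since 59 loci held more than 1 pair. At those loci positions are given relative to a leading pair, the closest one without a read-through or unnamed gene where there was such a pair, and 26 leading pairs held a read-through gene. The main comparison was with 7804 peaks whose summit lay within 500 bp of the 5′ end of any other coding gene.

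The study used the Ewing sarcoma cell line A673, an established line that carries the EWSR1-FLI1 fusion, for chromatin immunoprecipitation and sequencing (ChIP-seq). One group was 1 library precipitated with the MYBL2 antibody and the other 1 library of input DNA, both from A673 cells, and the labels give no further treatment for either. The antibody was labelled as one against MYBL2, and by the study's methods it recognises the phosphorylated, activated protein. With 1 library per group there was no replicate error, the intervals below cover counting error only, and no difference between classes of peak was tested.

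Divergent promoters are short stretches from which 2 genes are read in opposite directions. They are common in mammalian genomes, often lie in CpG islands and often serve genes with general duties such as DNA repair, mitochondrial function and cell division. MYBL2 (B-MYB) is a transcription factor of proliferating cells that joins the MuvB complex at late cell cycle genes, where the complex contacts a short sequence called the cell cycle genes homology region (CHR element).

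The stretches between the 5′ ends show what such a shared promoter looks like. Given here are the 6 strongest pairs whose stretch was 60 to 300 bases long, and 1 pair each known from textbooks (TK1/AFMID), of the G2/M list (SHC1/CKS1B) and of the mitochondrial translation list (SKA3/MRPL57). Each is on the plus strand of GRCh37, 5′ to 3′, from the base after the 5′ end of the minus-strand gene, named first, to the base before that of the plus-strand gene. Capitals mark letters of 9 motifs searched on both strands: the CCAAT box (CCAAT), the ETS core (CCGGAAGT), the E2F site (TTTCCCGC, TTTCGCGC, TTTGCCGC or TTTGGCGC), the MYB site (TAACGG and its variant TAACTG, or CAACGG and its variant CAACTG), the CHR element (TTTGAA or TTCGAA), the NRF1 core (GCGCATGCG), the YY1 core (AAGATGGCG), the SP1 box (GGGCGG) and the TATA box (TATAAA).
NOP14/GRK4 (chr4:2965134-2965297, 164 bases): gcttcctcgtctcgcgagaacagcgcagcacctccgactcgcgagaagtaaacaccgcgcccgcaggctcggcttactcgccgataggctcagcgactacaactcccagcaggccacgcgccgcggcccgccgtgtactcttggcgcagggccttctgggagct
RPL12/LRSAM1 (chr9:130213686-130213767, 82 bases): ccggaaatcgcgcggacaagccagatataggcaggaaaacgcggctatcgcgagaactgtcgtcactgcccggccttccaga
DCAF16/NCAPG (chr4:17812382-17812601, 220 bases): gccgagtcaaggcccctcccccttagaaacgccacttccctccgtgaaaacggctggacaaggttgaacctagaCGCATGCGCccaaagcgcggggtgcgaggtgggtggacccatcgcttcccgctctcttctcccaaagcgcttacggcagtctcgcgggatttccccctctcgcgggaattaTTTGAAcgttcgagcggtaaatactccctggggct
H2BC21/H2AC20 (chr1:149858233-149858467, 235 bases): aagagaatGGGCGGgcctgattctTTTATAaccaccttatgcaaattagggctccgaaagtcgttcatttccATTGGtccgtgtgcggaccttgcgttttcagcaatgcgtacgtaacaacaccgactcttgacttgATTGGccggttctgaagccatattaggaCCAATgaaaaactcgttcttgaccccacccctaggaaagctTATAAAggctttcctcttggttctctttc
H2AC17/H2BC17 (chr6:27860964-27861202, 239 bases): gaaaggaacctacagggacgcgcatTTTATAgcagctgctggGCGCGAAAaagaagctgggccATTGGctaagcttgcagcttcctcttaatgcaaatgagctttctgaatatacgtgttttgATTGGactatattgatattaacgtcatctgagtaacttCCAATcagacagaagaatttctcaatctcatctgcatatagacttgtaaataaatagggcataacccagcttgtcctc
H2BC4/H2AC6 (chr6:26124155-26124372, 218 bases): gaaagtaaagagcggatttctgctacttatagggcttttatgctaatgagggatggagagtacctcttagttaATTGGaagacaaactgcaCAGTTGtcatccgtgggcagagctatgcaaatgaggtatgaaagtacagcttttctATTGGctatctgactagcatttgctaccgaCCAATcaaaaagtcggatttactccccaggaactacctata
TK1/AFMID (chr17:76183315-76183438, 124 bases): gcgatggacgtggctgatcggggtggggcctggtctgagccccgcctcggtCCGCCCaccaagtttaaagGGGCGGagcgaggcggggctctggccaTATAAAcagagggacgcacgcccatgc
SHC1/CKS1B (chr1:154946872-154947128, 257 bases): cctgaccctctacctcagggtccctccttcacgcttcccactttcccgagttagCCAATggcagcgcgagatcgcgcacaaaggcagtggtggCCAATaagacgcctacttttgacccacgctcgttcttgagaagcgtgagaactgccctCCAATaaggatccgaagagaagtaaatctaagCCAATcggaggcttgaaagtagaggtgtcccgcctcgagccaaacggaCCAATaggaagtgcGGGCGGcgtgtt
SKA3/MRPL57 (chr13:21750692-21750796, 105 bases): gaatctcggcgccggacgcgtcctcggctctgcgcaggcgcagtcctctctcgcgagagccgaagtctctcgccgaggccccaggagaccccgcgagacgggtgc

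The 3 histone stretches each held CCAAT letters at 3 places, and H2BC21/H2AC20 also held TATA letters near both ends. The stretch of SHC1/CKS1B held CCAAT letters at 5 places. In DCAF16/NCAPG, CHR letters stood near the NCAPG end and NRF1 letters further in. Between TK1 and AFMID lay SP1 letters at 2 places and TATA letters at 1. None of the motifs was found in the stretches of NOP14/GRK4, RPL12/LRSAM1 and SKA3/MRPL57, which says only that these letters were not there. A match is a run of letters, and is no evidence of a binding site.

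The first question was how often genes of such pairs carried a MYBL2 summit. Of 1703 coding genes in divergent pairs, 1424 had a summit within 500 bp of their own 5′ end (83.6%, exact binomial interval 81.8 to 85.3%). Over all 20098 coding genes the share was 45.6%, and over the 18395 genes outside such pairs it was 42.1% (interval 41.4 to 42.8%, 7740 genes). Both genes of the leading pair were within reach of a summit at 649 of 821 loci (79.0%), and 1 of the 2 at 72. The genes of a pair share most of their window, so 1 peak could count for both.

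Genes with other kinds of neighbour lay between these values. Of 975 coding genes whose 5′ end overlapped head to head with that of another coding gene by up to 1000 bp, 676 had a summit (69.3%, interval 66.3 to 72.2%). Of 1401 genes with a divergent long noncoding RNA (lncRNA) within 1000 bp, 1000 had one (71.4%, interval 68.9 to 73.7%). Of 16019 genes with no such partner, 6064 had one (37.9%, interval 37.1 to 38.6%). The interval of the coding pairs thus lay above those of the other classes.

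CpG content of the promoter also differed between the classes. The CpG observed/expected ratio within 500 bp of the 5′ end was at least 0.6 in 90.5% of pair genes and 56.9% of the other coding genes. Genes with a divergent lncRNA had a median ratio of 0.809 and pair genes one of 0.781. At a ratio of at least 0.8, 669 of 744 pair genes had a summit (89.9%, interval 87.5 to 92.0%) against 72.5% of 5044 other genes. Between 0.6 and 0.8 the values were 85.6% of 797 pair genes and 60.4% of 5415 others. Under 0.6 they were 45.1% of 162 pair genes (interval 37.2 to 53.1%) and 10.2% of 7936 others, but within this class the pair genes still had the higher median ratio (0.515 against 0.267). The pair genes were above the others in each of the 3 CpG classes, but by less over the classes most like them. With an overlapping coding partner or a divergent lncRNA, 80.6% and 78.9% had a summit at a ratio of at least 0.8. Between 0.6 and 0.8 it was 75.1% and 75.4%. Under 0.6 it was 32.6% (interval 25.8 to 40.0%) and 21.6%, and the first interval overlapped that of the pair genes. The part of CpG content and of gene activity in the result was not tested.

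**Figure D1:**
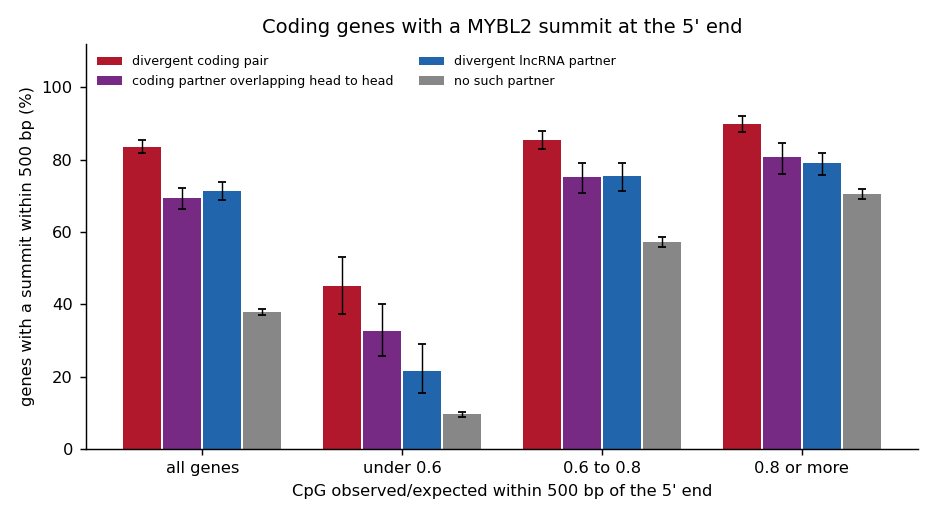
Share of coding genes with a MYBL2 summit within 500 bp of the 5′ end (y axis, percent), for all genes and in 3 classes of CpG observed/expected ratio (x axis), by kind of divergent or overlapping neighbour; bars are shares and lines exact binomial 95% intervals. Genes of divergent coding pairs (red) had the highest share in every class, from 45.1% at the lowest CpG to 89.9% at the highest.

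Member peaks were next compared by strength. The authors' fold enrichment is the ratio of fragments piled up at the summit to the local background from the input, with 1 added to both, which lowers the ratio where the background is low. Its median was 9.88 at the 799 members (order-statistic 95% interval 9.44 to 10.2, range 2.36 to 52.6) and 7.66 at the 7804 peaks of other coding 5′ ends (interval 7.61 to 7.86). Among those others it was 8.92 with an overlapping coding partner, 8.73 with a divergent lncRNA and 7.42 with neither, and over the whole list it was 3.79. A fold enrichment of at least 10 was reached by 387 members (48.4%, exact interval 44.9 to 51.96%), by 31.97% of the other coding peaks and by 6.53% of all peaks. At least 20 was reached by 67 members (8.39%) and 4.79% of the other coding peaks.

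The fragments behind these ratios gave the same order. The number of fragments at the summit, worked out from each peak's ratio and p-value, had a median of 49 at members (12 to 266) and 38 at other coding peaks, over a median background of 3.73 in both. Member peaks were also wider, with a median of 910 bp against 750 bp. The CpG ratio within 250 bp of the summit was alike (median 0.844 and 0.836), and GC content was 64.1% and 66.3%. With only the strongest peak of each locus or gene, the medians were 10.4 and 8.09. Of the strongest 1% of the list, 670 peaks with ties, 70 were members (10.4%) and 392 lay at other coding 5′ ends (58.5%).

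**Figure D2:**
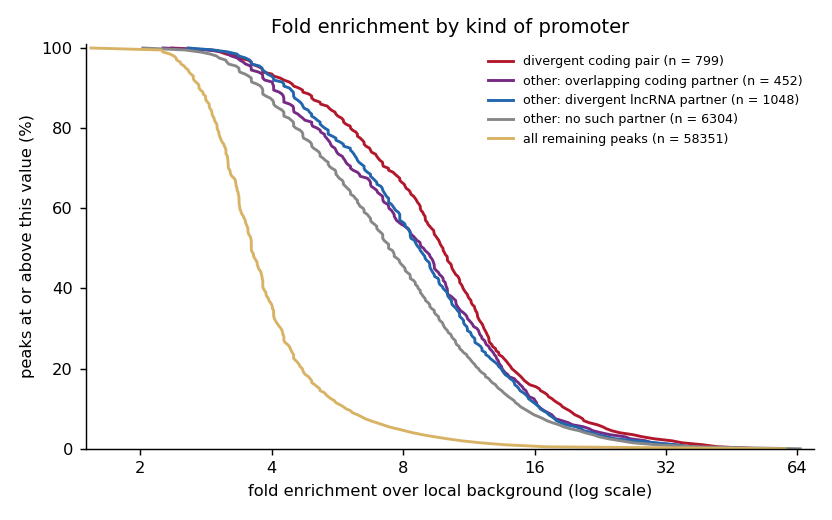
Percentage of peaks at or above each fold enrichment (x axis, log scale) for members and 4 other classes of peak. The curve of the 799 members (red) lies to the right of the others through the middle of the range (median 9.88), followed by peaks with an overlapping coding or divergent lncRNA partner (8.92 and 8.73), and the curves meet at the highest values.

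The strongest members lay at pairs of varied function. The largest fold enrichment, 52.6, was at NOP14/GRK4, where NOP14 serves ribosome assembly and GRK4 encodes a kinase of G protein-coupled receptors (chr4:2964608-2965690, 233 fragments, Poisson interval 204.04 to 264.9). Its summit lay between the genes, 43 bp from the NOP14 end, and it ranked 8 in the whole list. The peak at STYXL1/MDH2, with the mitochondrial malate dehydrogenase gene MDH2, reached 52.05 from 231 fragments (chr7:75676855-75678045). The SUGP1/MAU2 peak reached 49.2 (chr19:19431063-19432222), next to genes for a splicing factor and a cohesin loader. The peak at RPL12/LRSAM1, a ribosomal protein gene and a ubiquitin ligase gene, reached 47.7 and was 7390 bp wide (chr9:130206628-130214017). The first 4 of these pairs all had the summit between the 5′ ends and a peak that covered both. The Poisson intervals of their fold enrichments overlapped, from 46.1 to 59.7 for the first and 41.6 to 54.6 for the fourth.

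The next 6 were 2 cell division pairs, 3 histone pairs and SMG5/TMEM79. The peak at CDCA3/USP5 had a fold enrichment of 42.0 from 266 fragments, the most of any member (chr12:6959544-6962059). Its summit lay inside USP5, a deubiquitinase gene, 364 bp from the USP5 end and 1220 bp from that of the mitotic entry gene CDCA3. At DCAF16/NCAPG the value was 40.3, with the summit between the genes and 48 bp from the end of NCAPG, a condensin subunit (chr4:17811842-17813969). The histone pairs H2BC21/H2AC20, H2AC17/H2BC17 and H2BC4/H2AC6 had 39.9, 39.3 and 38.9. SMG5/TMEM79, with the nonsense-mediated decay gene SMG5, had 37.6 (chr1:156252359-156253242).

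The weakest pairs with a member were IFIH1/GCA (fold enrichment 2.36), DHX32/FANK1 (2.47), TECPR1/BRI3 (2.88) and OSTM1/NR2E1 (2.92), followed by 3 pairs tied at 3.15, namely SEZ6L2/ASPHD1, TNS1/RUFY4 and TPMT/KDM1B. Their pileups of 12 to 44 fragments had wide Poisson intervals, such as 6.20 to 20.96 for the 12 fragments at OSTM1/NR2E1. At DHX32/FANK1 the low ratio came with 44 fragments over a local background of 17.2.

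Where the summit sat relative to the 2 starts was then measured. It lay between the 5′ ends at 211 of 799 members (26.4%, exact interval 23.4 to 29.6%), inside the minus-strand gene at 301 (37.7%) and inside the plus-strand gene at 287 (35.9%). The stretch between made up 15.3% of the window on average. For pairs up to 100 bp apart the share of summits between was 18.6%, against 5.42% of the window. Above 100 and up to 200 bp it was 29.3% against 12.6%, and from there to 500 bp 30.0% against 23.1%. For pairs still further apart it was 39.7% against 42.8%, so the excess was confined to the closer pairs. The median distance from the midpoint of the pair was 139.5 bp (interval 124 to 148.5 bp), and 652 of 799 summits lay within 300 bp of it (81.6%). The nearer 5′ end was a median of 65 bp away, against 110 bp at other coding peaks, which have only 1 end to be near. Members with the summit between the ends had a median fold enrichment of 11.5 (interval 10.3 to 12.3), and the 588 with the summit outside had 9.44 (interval 8.93 to 9.88). These medians pool all members, with second summits of a locus included. At 56 of the 75 loci with 2 or more members, members lay outside on both sides. The second summits had a median of 4.50, and the comparison was not made with 1 peak per locus.

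One peak usually spanned both starts. The strongest peak covered both 5′ ends at 592 of 722 loci (82.0%, exact interval 79.0 to 84.7%). At the 75 loci with 2 or more members the 2 strongest summits were a median of 562 bp apart. At 56 of the 75, members lay on opposite sides of the pair, inside the minus-strand gene and inside the plus-strand gene. Over the 75 loci the median fold enrichment was 8.24 for the stronger and 4.50 for the second summit. NPAT/ATM held 2 members, with 10.1 inside NPAT, a coactivator of histone genes, and 5.84 for the second summit.

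The distance between the starts bore little relation to strength. It had a median of 128 bp and ranged from 1 to 995 bp. The strongest peak had a median fold enrichment of 10.7 at 284 bound pairs up to 100 bp apart (interval 10.03 to 11.3), 10.1 above 100 and up to 200 bp, 10.4 from there to 500 bp and 10.01 at 53 bound pairs that were still further apart (interval 8.59 to 12.3). Spearman's rho between spacing and fold enrichment was -0.04 over 722 loci of 1 library, and that of CpG ratio and fold enrichment was 0.16. The share of pairs with a member was 88.2%, 85.5%, 93.2% and 80.3% in the 4 spacing classes. The summit stayed within a median of 76.5 bp of the midpoint in the closest class and 372.5 bp in the widest, and the peak covered both ends in 94.4% and 41.5%.

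**Figure D3:**
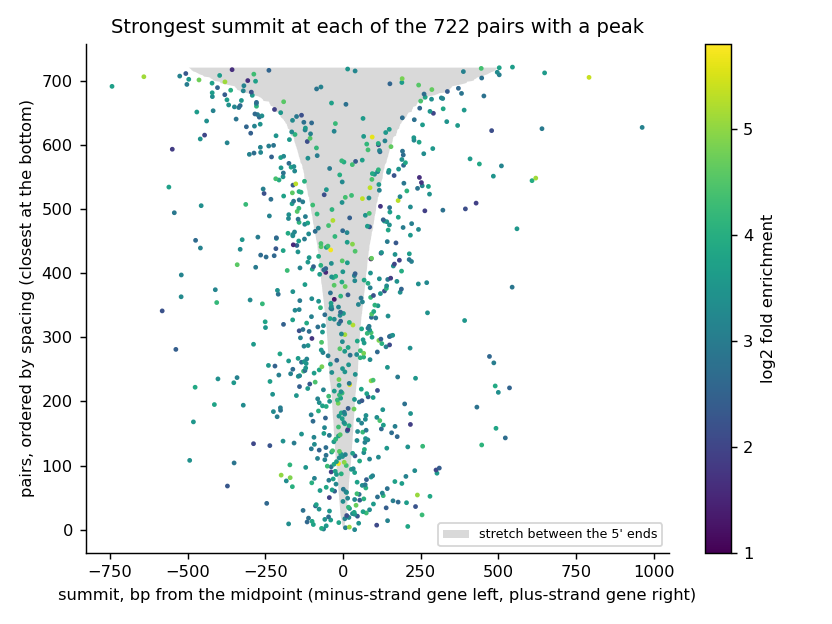
Position of the strongest summit at each of the 722 pairs with a member, in bp from the midpoint of the 5′ ends (x axis), with pairs ordered by spacing from the closest (bottom) to the widest (top). Grey marks the stretch between the 5′ ends and colour the log2 fold enrichment; summits stand on both sides of the grey stretch, 301 of all 799 members in the minus-strand gene and 287 in the plus-strand gene.

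Near the limits of the rule, the 31 members with a summit more than 400 bp outside a pair had a median fold enrichment of 7.61, and the 42 peaks that missed the reach by up to 100 bp had 5.12. Of 16 pairs more than 900 bp apart 14 had a member (median 8.47). Of 7 coding pairs that exceeded the limit by up to 100 bp, 4 had a peak in the same window (median 9.80).

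The pairs were then read by what their genes do, using lists that were written with earlier results of these data known. Over all loci the strongest peak had a median fold enrichment of 10.4, and it reached 10 at 386 of 722 loci (53.5%). A member lay at 87.9% of all 821 loci, and the shares of the lists are to be read against that value. Pairs with a gene of the G2/M list had one at 15 of 16 loci, with a median of 15.0, and 12 of the 15 reached 10. Outside pairs, the 53 of 66 G2/M genes with a peak had a median of 14.3, close to the value of the paired G2/M genes themselves (15.6 at 12 of 16). The values led from CDCA3/USP5 and DCAF16/NCAPG to METTL4/NDC80 (31.2), where NDC80 encodes a kinetochore protein, and KCTD9/CDCA2 (23.1). SHC1/CKS1B followed with 17.2, and CKS1B is a cofactor of cyclin-dependent kinases. FOXM1/TULP3, with the mitotic transcription factor FOXM1, had 15.0. The lowest value in the list was that of CENPB/CDC25B, 5.39.

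Genes of the ribosome and its assembly gave the highest median among the larger lists. All 33 such pairs had a member, beside 87.9% of all pairs, with a median of 15.2 and a range of 3.82 to 52.6, and 27 reached 10. Outside pairs 113 of 136 such genes had a peak, with a median of 13.6. After NOP14/GRK4 and RPL12/LRSAM1 came NOL9/TAS1R1 (34.1), where NOL9 processes ribosomal RNA, and MED22/RPL7A (31.5). At NOL9/TAS1R1 the starts were 794 bp apart and the summit lay 17 bp from the NOL9 end. TAS1R1 encodes a taste receptor.

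Histone pairs had the highest median of the lists. Members lay at 9 of 11 pairs of replication-dependent histone genes, a share near the 87.9% of all pairs, with a median of 21.1 and a range of 15.5 to 39.9. All 9 were pairs of an H2A with an H2B gene, the proteins that form a dimer in the nucleosome. The summit was nearer the H2A than the H2B end at 7 of 9, a count chosen after its values were seen (exact interval 40.0 to 97.2%). At H2BC21/H2AC20 it lay 31 bp from the H2A end and 205 bp from the H2B end. H2BC12/H2AC12 (34.8), H2BC11/H2AC11 (21.1) and H2AC15/H2BC15 (20.7) were next, and H2AC14/H2BC14 had the lowest value (15.5). The pairs H2AC1/H2BC1 and H3C7/H2BC9 had no member. Histone copies are nearly identical in part, so the placing of reads among them is uncertain despite the mapping quality filter. Outside pairs 16 of 43 histone genes had a summit, with a median of 35.6.

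Replication and repair genes are frequent among divergent pairs, and their values stood near those of all pairs. Of 85 replication and G1/S genes 22 were in pairs (25.9%) and of 155 DNA repair genes 42 (27.1%), against 8.47% of all coding genes. Members lay at 20 of 22 replication pairs (median 11.1) and 39 of 42 repair pairs (median 10.9), both near the 87.9% of all pairs. The replication pairs were led by POLE/PXMP2 (19.4), LIPT2/POLD3 (18.3), TK1/AFMID (18.3) and LIG1/ZSWIM9 (18.2). POLE and POLD3 encode subunits of replicative DNA polymerases, TK1 is thymidine kinase and LIG1 joins DNA ends. The repair pairs were led by HNRNPK/RMI1 (23.4), FBXO48/APLF (17.8), APTX/DNAJA1 (15.4) and UIMC1/ZNF346 (15.1). The HNRNPK/RMI1 peak was the widest member, 8976 bp, with its summit 13 bp from the end of HNRNPK, an RNA-binding protein gene. In both lists the medians of genes outside pairs were alike, 11.2 and 10.6.

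Mitochondrial genes formed many pairs. For mitochondrial translation 20 of 21 pairs had a member, against 87.9% of all pairs (median 11.3), led by SKA3/MRPL57 (35.1), MRPL36/NDUFS6 (16.4), MRPL10/LRRC46 (14.6) and APBA3/MRPL54 (13.5). SKA3 encodes a spindle and kinetochore protein, and its partner a protein of the mitochondrial ribosome. For the respiratory chain 28 of 29 pairs had a member (median 11.8), led by NDUFA11/VMAC (34.7), MAGT1/COX7B (30.0), ESF1/NDUFAF5 (27.3) and COX11/STXBP4 (25.9). At NDUFA11/VMAC the summit lay inside NDUFA11, a complex I gene, 208 bp from its end and 1074 bp from the VMAC end.

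The other lists were spread around the median of all pairs. The shares with a member are again to be set beside 87.9% of all pairs. All 19 splicing pairs had one (median 10.5), led by SRSF7/GEMIN6 (31.9), GUCD1/SNRPD3 (17.7), COG4/SF3B3 (16.9) and SF3B6/FAM228B (16.8). Proteasome and ubiquitin pairs had one at 13 of 14 (median 12.4), led by ANAPC2/SSNA1 (22.9), CDC26/PRPF4 (16.5), LMBRD2/SKP2 (16.4) and ANAPC5/RNF34 (14.1), which hold 3 genes of the anaphase-promoting complex and the F-box gene SKP2. Zinc finger pairs had one at 29 of 30 (median 9.63), led by LPXN/ZFP91 (28.3), SCGB2B2/ZNF302 (21.3), ZNF425/ZNF398 (19.5) and ZNF891/ZNF10 (18.01). The regulators of the E2F, DREAM and MuvB families gave 3 pairs, FOXM1/TULP3, ZBTB8OS/RBBP4 (11.9) and ALDH6A1/LIN52 (6.29). RBBP4 and LIN52 encode subunits of MuvB.

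**Figure D4:**
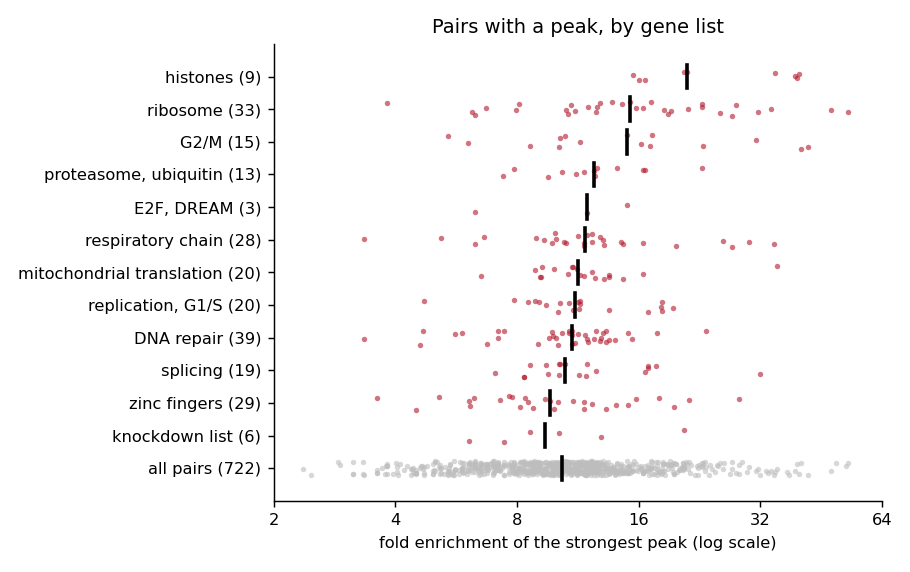
Fold enrichment of the strongest peak (x axis, log scale) at each pair with a member, by gene list (rows, number of pairs in brackets), with all pairs at the bottom; points are pairs and black lines medians. Medians ranged from 9.37 (knockdown list) to 21.1 (histones), beside 10.4 for all 722 pairs, and a pair can stand in more than 1 list.

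Genes that the study listed as changed after MYBL2 knockdown in Ewing sarcoma cells gave 6 pairs. Of 76 listed names 70 were placed, and 6 of them belonged to divergent pairs (8.57%, against 8.47% of all coding genes). All 6 pairs had a member, as did 87.9% of all pairs, with a median of 9.37, below the 10.4 of all pairs. The values were 20.7 at RANBP10/TSNAXIP1, 12.9 at UQCC6/TDG, 10.2 at SKA2/PRR11, 8.59 at CCDC38/AMDHD1, 7.41 at RPP25/SCAMP5 and 6.07 at C2orf81/WDR54. Only 4 of the 6 listed genes had the summit within 500 bp of their own 5′ end. At SKA2/PRR11 it lay 43 bp from the end of SKA2, a kinetochore gene, and 515 bp from that of PRR11. Which way these genes changed was not used here.

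Of 23 pairs on a list written as textbook divergent pairs 11 met the rule, and 10 of these had a member. TK1/AFMID was the strongest (18.3, 84 fragments), followed by PRKDC/MCM4 (13.5), which joins a DNA repair kinase to a replicative helicase subunit. MRE11/ANKRD49 (11.8), PREPL/CAMKMT (11.7) and TMEM258/FEN1 (11.3) were lower. The lowest values were at NPAT/ATM (10.1), SARS2/MRPS12 (9.85), SIRT3/PSMD13 (7.86) and POLR3K/SNRNP25 (7.04). PPAT/PAICS, a pair of purine synthesis genes, had no summit in its window, yet a peak of 8.54 lay within 500 bp of a canonical 5′ end of these genes. Among the 12 pairs outside the rule, HSPD1/HSPE1, SURF1/SURF2, TAP1/PSMB9, COL4A1/COL4A2, CHEK2/HSCB and BRCA2/ZAR1L overlap at their outermost starts. The starts of PARK7/TNFRSF9 are divergent but 11126 bp apart. ACAT2/TCP1, ATP5PO/ITSN1 and ETFDH/PPID do not point away from each other by outermost or canonical starts. These were listed in error, so the 23 pairs give no rate for the rule.

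The 99 pairs without a member were poorer in CpG. Their CpG ratio had a median of 0.704 (interval 0.627 to 0.752), against 0.794 at pairs with a member, and 65 of 99 (65.7%) were CpG-rich, against 687 of 722 (95.2%). A peak touched the window of 20 of them, and 38 had a summit within 500 bp of the canonical 5′ end of a gene of the pair. The closest spaced were LYSMD2/TMOD2, PTPN3/PALM2AKAP2, PLPP3/PRKAA2, PLCZ1/CAPZA3, CIDEB/LTB4R, MAGEA12/CSAG1, STX10/IER2, LANCL1/CPS1, PRSS54/GINS3 and CFAP90/MTRR. PLCZ1 and CAPZA3 are sperm genes and MAGEA12 and CSAG1 cancer-testis genes, and the CpG ratios of these pairs were 0.199 and 0.345. At PRSS54/GINS3 the canonical 5′ ends had a peak of 15.5, and the pair had no member by its outermost starts. NUDCD2/HMMR was the G2/M pair without a member, and a peak of 13.7 lay at a canonical 5′ end there.

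The letters of the 9 motifs were sought within 50 bp of each summit. CCAAT letters were at 105 of 799 member summits (13.1%, exact interval 10.9 to 15.7%) and 9.10% of other coding summits (interval 8.47 to 9.76%). The ETS core, the site of a factor family to which FLI1 belongs, was at 5.13% (interval 3.71 to 6.90%) and 3.49%. The E2F site was at 3.25% (interval 2.14 to 4.73%) and 1.68%, and the NRF1 core at 2.00% (interval 1.15 to 3.23%) and 0.654%. The intervals of the 2 classes did not overlap for CCAAT, E2F and NRF1. They overlapped for the ETS core, the MYB site (8.64% and 8.42%), the CHR element (4.88% and 3.77%), the YY1 core (2.13% and 1.90%), the SP1 box (30.2% and 30.3%) and the TATA box (1.25% and 1.15%). In windows centred 500 bp to either side of the member summits, CHR letters were at 6.01%, MYB letters at 9.76% and CCAAT letters at 9.89%. At peaks away from coding 5′ ends the shares were 10.5%, 10.7% and 13.5%. TATA letters were also more frequent in both sets than at member summits. ETS, E2F, NRF1, YY1 and SP1 letters were less frequent in both.

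As a background, windows of the same length were taken at all 20098 coding 5′ ends. There CCAAT letters were found at 12.3%, the ETS core at 3.36%, the E2F site at 1.28%, the MYB site at 9.17%, the CHR element at 4.15%, the NRF1 core at 1.25%, the YY1 core at 1.36%, the SP1 box at 32.4% and the TATA box at 5.00%. At the midpoints of all 821 pairs CCAAT letters were at 25.7%, the ETS core at 7.80% and the SP1 box at 45.7%. Across the 722 bound pairs CCAAT letters occurred 3.72 times per kb between the 5′ ends and 0.946 times per kb in the 500 bp to either side. The ETS core stood at 0.542 and 0.137 per kb, while the MYB site (0.948 and 1.06) and the CHR element (0.435 and 0.46) had like densities inside and outside. CCAAT letters were thus denser between the starts, where 26.4% of the summits lay.

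The letters were also set beside the strength of the members. Members with CHR letters near the summit had a median fold enrichment of 12.6 (39 peaks, interval 10.2 to 15.02), and those without had 9.72 (interval 9.36 to 10.1). The ETS core gave 11.7 (interval 10.2 to 13.2) and 9.72. With the members split into 4 groups of about equal size by strength, CHR letters stood at 17 summits of the strongest and 5 of the weakest group, the ETS core at 16 and 6, and the YY1 core at 0 and 4. The exact intervals of the strongest and weakest group overlapped for each of the 9 motifs. For CHR letters they were 5.00 to 13.2% and 0.817 to 5.74%. The medians with and without CCAAT letters were 10.3 and 9.77, with and without the MYB site 10.8 and 9.77, and their intervals overlapped. At the other coding peaks the medians with and without the CHR element were 8.16 and 7.64. They were 10.2 and 7.62 there for the ETS core, and 9.68 and 7.64 for the YY1 core. None of the 9 motifs was found at 364 of 799 summits (45.6%).

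**Figure D5:**
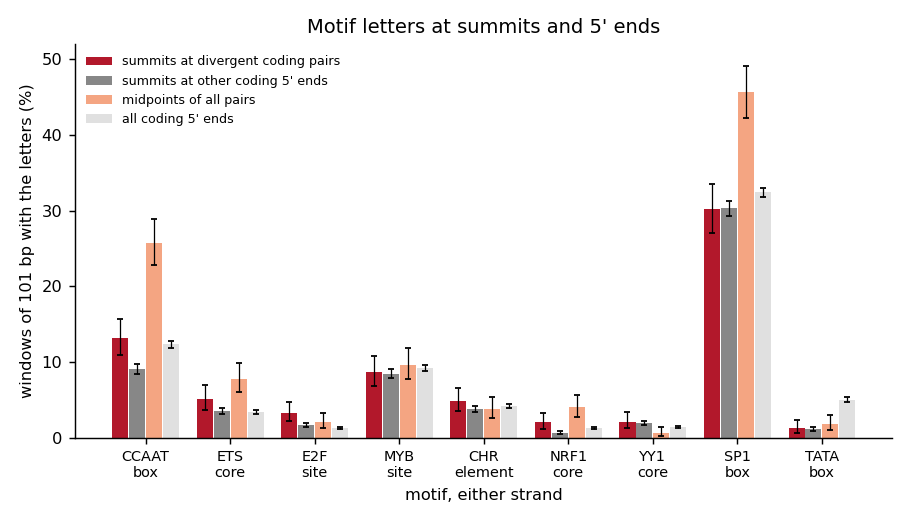
Percentage of windows, 50 bp to either side of a centre, that hold each motif on either strand (y axis) at member summits, summits at other coding 5′ ends, midpoints of all 821 pairs and all 20098 coding 5′ ends; lines are exact binomial 95% intervals. CCAAT letters were at 25.7% of midpoints and 13.1% of member summits, and the SP1 box was at 45.7% and 30.2%.

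The CHR element stood out in 1 list. It was within 50 bp of the strongest summit at 7 of 15 G2/M pairs (46.7%) and at 36 of all 722 pairs (4.99%). Of the 51 G2/M genes outside pairs to which a peak was assigned, 20 had it (39.2%), beside 3.68% of all 7286 such genes. At the 7 pairs the summit was in each case nearer the G2/M gene than its partner, against 2 of the 8 G2/M pairs without the letters, a count chosen after its values were seen. Its distances to the 2 ends were close at NDC80 (20 and 28 bp), AURKA (146 and 180 bp) and CDCA5 (148 and 194 bp). At CDCA8, CKS1B, NCAPG and KIF18A they were 1 and 233, 15 and 243, 48 and 173, and 10 and 82 bp. The median fold enrichment was 17.1 with the letters (8.63 to 40.3) and 10.97 without (5.39 to 42.0), so the ranges overlapped. The letters lay 2 to 48 bp from the summit. They are shown in 30 bases of GRCh37, 5′ to 3′ in the direction of the G2/M gene, with every match of the element in capitals, since they are the letters that the G2/M pairs held most often.
NCAPG (chr4:17812555-17812584, plus strand): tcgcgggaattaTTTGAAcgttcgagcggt
NDC80 (chr18:2571541-2571570, plus strand): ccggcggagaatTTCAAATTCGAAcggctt
CKS1B (chr1:154947115-154947144, plus strand): gcgggcggcgtgTTTGAAagcgaggccaaa
CDCA5 (chr11:64851521-64851550, minus strand): cagggcgggtaaTTCGAAcgttttttgcag
AURKA (chr20:54967257-54967286, minus strand): aaaagaagaaccTTTGAAttctaacggctg
KIF18A (chr11:28129696-28129725, minus strand): aagtggcttgggTTTGAAtattgtggttga
CDCA8 (chr1:38158153-38158182, plus strand): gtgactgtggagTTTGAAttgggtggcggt

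The NDC80 stretch held 2 adjoining matches, TTTGAA on the opposite strand and TTCGAA, which reads the same on both strands. At NCAPG, CKS1B, KIF18A and NDC80 the match nearest the summit began 2 to 35 bp before the 5′ end, and at CDCA8, CDCA5 and AURKA it began 12, 98 and 119 bp inside the gene. CKS1B, KIF18A and CDCA8 also had CCAAT letters within 50 bp of the summit. AURKA is a mitotic kinase, CDCA8 a subunit of the chromosomal passenger complex, KIF18A a mitotic kinesin and CDCA5 a protector of sister chromatid cohesion. In the other lists CHR letters were at 3 of 19 splicing summits, 2 of 39 repair summits and 0 of 20 replication summits, and E2F letters were at 2 of the 20 replication summits.

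Whether the summit leaned to the gene of a list rather than its partner was counted for pairs with exactly 1 listed gene. It was nearer the listed gene at 14 of 20 replication pairs (exact interval 45.7 to 88.1%), 13 of 18 mitochondrial translation pairs, 9 of 15 G2/M pairs and 19 of 33 ribosome pairs. It was nearer the partner at most respiratory chain pairs (12 of 27 nearer the listed gene) and splicing pairs (8 of 18). The interval of each of these shares included 50%.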

How the data were processed

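Per the study's methods and the submitters' processing notes, the authors aligned single-end reads of A673 cells to hg19 with Bowtie2 2.1.10, kept a mapping quality of at least 20 and called narrow peaks with MACS2 2.0.10 (q threshold 0.05) on 1 ChIP library against 1 input library, with nothing pooled. What a later cleaning step removed is not given in the sources used here. The deposited list holds, per peak, the positions, the fold enrichment (a linear ratio), the −log10 p and −log10 q, and a score by the authors. Whole-number pileups were recovered by solving the deposited fold enrichment and −log10 p together (largest misfit 3.49e-05 in −log10 p). Read totals were not analysed here.

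Genes were 20098 protein-coding genes and lncRNA genes of GENCODE release 44 lifted to GRCh37, on 23 chromosomes. Python 3.11.15 with pandas 2.3.3, scipy 1.17.1 and pysam 0.24.0 was used, and the rules for pairs, classes and intervals were tested on simulated data. Shares have exact (Clopper-Pearson) intervals, medians order-statistic intervals and pileups Poisson intervals, all at 95%. They cover counting error only, since peaks are not replicates and duplicate fragments are not independent molecules. No test was made. The members, gene lists and motifs were chosen with earlier results of these data known. Named pairs were the 10 strongest, the 5 weakest with ties, the textbook pairs, pairs with a knockdown gene, up to 4 per list and the 10 closest spaced without a peak. Further names were chosen after their values were seen. Alternatives were stricter peaks, closer pairs, a shorter reach, canonical 5′ ends, overlapping pairs added, CpG-rich promoters, 1 peak per locus and gene groups left out. A few pairs counted in the lists are not reported here by name.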

Additional observations from a re-analysis of the deposited data

How the results depend on the processing

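No paired analysis was possible because there was 1 ChIP and 1 input library. Of 54 alternative values 33 stayed within the interval of the value reported (for the number of members, within 1.5 times) and 21 moved. Pair genes had a higher share than the other coding genes in the 8 alternatives that recompute it, and member peaks the higher median in all 10, with a difference of medians from 1.35 (fold enrichment of at least 5) to 2.27.

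With fold enrichment of at least 5, 81.7% of pairs and 76.7% of pair genes had a summit, and the medians were 10.6 at members and 9.21 at other coding peaks, since the filter removes weak peaks. With −log10 q of at least 5, 81.7% of pair genes had one and the other median was 8.31. Pairs at most 500 bp apart gave 86.5% of genes and a distance from the midpoint of 123.75 bp. A reach of 250 bp gave 82.7% of pairs, 69.9% of genes, 120.5 bp and an other median of 8.23. Canonical 5′ ends gave 94.3% of pairs, 86.6% of genes, 38.8% of summits between the ends and 152.5 bp. The strongest peak alone gave medians of 10.4 and 8.09, and CpG-rich promoters an other median of 8.09. Adding overlapping pairs gave 1251 members and 78.4% of genes. Leaving out read-through and unnamed genes, chosen after seeing the data, moved none of 5 values.

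A pileup of 12 fragments has an interval of 6.20 to 20.96, so weak members cannot be ranked. With 1 library, no spread between cultures was measured.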
